A study of Mus musculus with 18 samples.

Results

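Atf3, Sox11, Gap43, Sprr1a, Ecel1 and Csf1 are 6 genes that neurons are known to switch on when their axons are damaged. They were taken by gene symbol from the 38924 genes of each table, and all 6 were found once in each of the 18 libraries. After axon damage, a retrograde signal reaches the nucleus of a motor or sensory neuron and starts a regeneration programme. The stress-inducible transcription factor Atf3 and the developmental transcription factor Sox11 drive part of it. Among its products are the growth-cone protein Gap43, the small proline-rich protein Sprr1a, the membrane-bound endopeptidase-like protein Ecel1 and the cytokine Csf1, which acts on the receptor Csf1r of microglia.

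Ribosome-associated mRNA was sequenced from spinal cords of mice aged 8 weeks on a mixed background (B6;CASTxB6.129). Every mouse carried 1 copy of a conditional haemagglutinin-tagged Rpl22, a ribosomal protein, and ribosomes carrying it were immunoprecipitated together with their mRNA (RiboTag). In 7 mice Chat-Cre, which is active in cholinergic neurons and not in motor neurons alone, switched the tag on. Of these, 3 were heterozygous for P278KY, a dominant neuropathy change in the glycyl-tRNA synthetase gene Gars (Cre P278KY), and 4 had normal Gars (Cre WT). The negative controls had no Cre and comprised 6 P278KY heterozygotes (NoCre P278KY) and 5 mice with normal Gars (NoCre WT). The labels write normal Gars as P278KY+/+, and the series' design text gives it as Gars+/+.

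Library totals were 15461440 to 18944769 counts for the Cre P278KY mice and 14659488 to 24028649 for the Cre WT mice. They were 9876808 to 14450144 counts for the NoCre P278KY mice and 8177758 to 11480402 for the NoCre WT mice. Levels are counts scaled to TMM-normalised library size (CPM) of the fit of all 18 libraries unless TPM, which is per transcript length, is named. Cholinergic markers summed to 1608 to 2079 CPM in Cre P278KY and 1895 to 3367 CPM in Cre WT, against 60.8 to 80.5 CPM in NoCre P278KY and 103 to 127 CPM in NoCre WT. Chat was called higher in Cre P278KY than in NoCre P278KY (log2 fold change 5.19, adjusted p = 7.29e-12) and in Cre WT than in NoCre WT (3.95, adjusted p = 3.17e-10). Index sequences in the library descriptions fell into 2 sets, and index set 1 held all 3 Cre P278KY libraries and replicates 1 and 2 of Cre WT. The other Cre WT libraries, replicates 3 and 4, lay in index set 2. The expression of Xist and Y-linked genes marked 1 Cre P278KY mouse as male and 2 as female. It marked both Cre WT mice of index set 1 as male and both of index set 2 as female. All NoCre mice of index set 1 were likewise marked male and all of index set 2 female. Outside Cre P278KY, sex and index set thus cannot be told apart. In bulk libraries, fewer cells of a type and less RNA per cell cannot be told apart.

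The comparison of Cre P278KY with Cre WT asked which ribosome-associated mRNAs of cholinergic neurons differ with the Gars mutation. Of the 6 genes, 2 were called higher, Atf3 and Gap43, and 0 were called lower. Among all 14717 genes tested, 1.22% were called higher and 1.11% lower at an adjusted p under 0.05 (edgeR quasi-likelihood test, Benjamini-Hochberg adjustment). The median log2 fold change of the 6 genes was 0.69, beside -0.01 over all genes tested. Sox11, Sprr1a, Ecel1 and Csf1 did not pass.

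**Figure D1:**
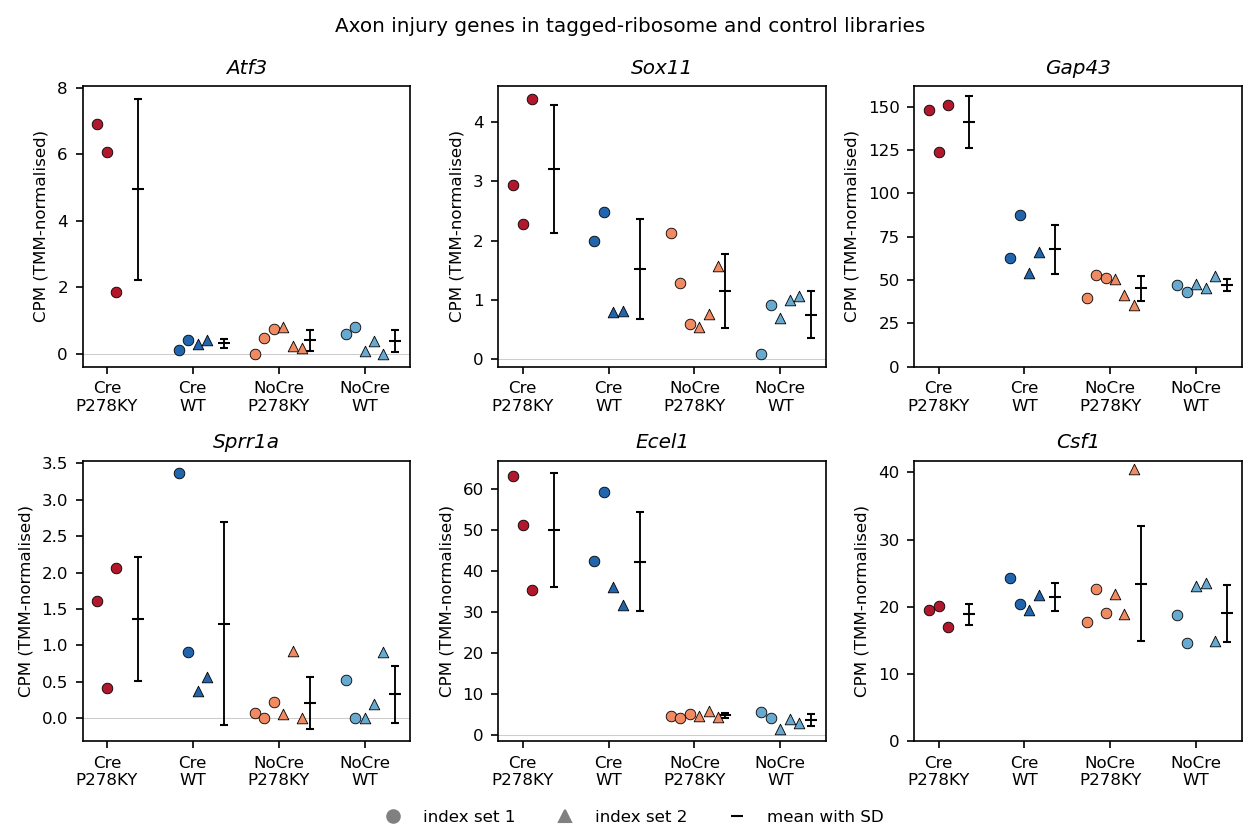
TMM-normalised CPM of the 6 genes in each of the 18 libraries, by group, with circles for index set 1, triangles for index set 2 and the group mean with its SD at the right of each group. Atf3 and Gap43 stood higher in all 3 Cre P278KY libraries than in any other library, Ecel1 was high in both Cre groups, and Csf1 covered a similar range in all 4 groups apart from 1 NoCre P278KY library at 40.4 CPM.

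Atf3 (ENSMUSG00000026628, chr1:191170296-191218039, minus strand, GRCm38) encodes a bZIP transcription factor that is nearly silent in uninjured neurons. Its level was 6.92, 6.08 and 1.85 CPM in Cre P278KY replicates 1 to 3, from 146, 149 and 27 counts. It was 0.125, 0.412, 0.305 and 0.430 CPM in the Cre WT libraries, from 2, 5, 10 and 10 counts. Every Cre P278KY library was above every Cre WT library, a separation that 8.2% of all genes tested showed in the same direction. The means were 4.95 ± 2.71 CPM in Cre P278KY (SD, n = 3) and 0.318 ± 0.140 CPM in Cre WT (SD, n = 4). The log2 fold change was 3.97 (SE 0.586, 95% interval 2.66 to 5.27, adjusted p = 0.00704), or 15.6-fold. Atf3 passed the filter on low counts through its 3 Cre P278KY libraries and 1 Cre WT library, so the filter already leaned on the group in which it was high.

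Replicate 3, the lowest Cre P278KY library for Atf3, was the highest of the 3 for Gap43, Sox11 and Sprr1a. It had 4.88% of its counts in mitochondrial ribosomal RNA, against 2.23% and 2.16% in replicates 1 and 2, and 64.0% in protein-coding genes, against 72.6% and 81.5%. The part of these differences in its Atf3 level was not tested. Within index set 1 alone the log2 fold change of Atf3 was 4.34 (adjusted p = 0.00666), and index set 2 holds no Cre P278KY library. Without Cre P278KY replicate 1 the adjusted p was 0.0573 (log2 fold change 3.61), and Atf3 stayed called with any other library left out. On the deposited TPM it was not called (2.33 on the log2(TPM + 0.5) scale, limma, adjusted p = 0.0710).

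The promoters of Atf3 and Sprr1a are shown because these were the only 2 of the 5 members with a RefSeq promoter that held a searched motif, and Atf3 was called in the Cre comparison while Sprr1a was not. The motifs were the AP-1 site TGANTCA, the ATF/CRE site TNACGTCA and the C/EBP-ATF site TGATGNAA, read on both strands over 300 bases, 250 before to 50 after the annotated start. Of 32544 promoters of that length in the RefSeq table (GRCm38.p6), 7.79% held the AP-1 letters, 2.95% the ATF/CRE letters and 3.91% the C/EBP-ATF letters. The 250 bases before each start are printed with matched letters in capitals, Atf3 at chr1:191183334-191183583 and Sprr1a at chr3:92485882-92486131, both on the minus strand.
Atf3: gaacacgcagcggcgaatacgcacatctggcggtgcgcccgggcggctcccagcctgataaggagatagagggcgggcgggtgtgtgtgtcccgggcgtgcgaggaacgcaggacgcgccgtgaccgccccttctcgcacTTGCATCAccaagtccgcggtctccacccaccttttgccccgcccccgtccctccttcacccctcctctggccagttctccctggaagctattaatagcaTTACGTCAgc
Sprr1a: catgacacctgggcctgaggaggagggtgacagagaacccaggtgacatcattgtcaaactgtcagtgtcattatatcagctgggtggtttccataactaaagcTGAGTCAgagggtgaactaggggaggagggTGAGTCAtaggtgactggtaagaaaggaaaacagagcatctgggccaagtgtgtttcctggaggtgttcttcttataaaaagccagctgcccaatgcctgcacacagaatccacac
In Atf3 the ATF/CRE match TTACGTCA began 10 bases and the C/EBP-ATF match TTGCATCA, read on the other strand, 110 bases before the start. Sprr1a held the AP-1 letters TGAGTCA at 146 and 116 bases before its start. Csf1, Ecel1 and Sox11 had none of the 3 motifs in this window. The Atf3 start used here lies inside the gene span given above, which begins on the minus strand at chr1:191218039. The bases before that outer end were not searched. A match is a description of the letters and not of a bound factor.

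Sox11 (ENSMUSG00000063632, chr12:27334264-27342574, minus strand) encodes an SRY-box transcription factor of immature and regenerating neurons. Its level was 2.94, 2.29 and 4.39 CPM in Cre P278KY and 1.99, 2.47, 0.792 and 0.818 CPM in Cre WT. The groups overlapped, since Cre WT replicate 2 stood above Cre P278KY replicate 2. The difference did not pass the test (log2 fold change 1.14, 95% interval 0.05 to 2.23, unadjusted p = 0.0418, adjusted p = 0.291). The 2 Cre WT libraries of index set 1 were the higher ones, and within that set the log2 fold change was 0.59 (adjusted p = 0.474). In deposited TPM the groups did not overlap, with 2.25, 2.31 and 2.58 TPM in Cre P278KY and 1.12, 1.2, 0.960 and 0.740 TPM in Cre WT, and limma on these values gave an adjusted p of 0.474. The share of all genes that separated in TPM was not worked out.

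Gap43 (ENSMUSG00000047261, chr16:42248442-42340651, minus strand) encodes a membrane phosphoprotein of growth cones. Its level was 147.8, 123.7 and 151.2 CPM in Cre P278KY and 62.7, 87.7, 54.2 and 66.4 CPM in Cre WT. The lowest Cre P278KY library was above the highest Cre WT library, a separation that 8.2% of all genes tested showed. The means were 141 ± 15.0 CPM in Cre P278KY (SD, n = 3) and 67.7 ± 14.2 CPM in Cre WT (SD, n = 4). The log2 fold change was 1.09 (SE 0.190, 95% interval 0.67 to 1.51, adjusted p = 0.0163), or 2.13-fold, and within index set 1 it was 0.99 (adjusted p = 0.0156). The call was lost without any single Cre P278KY library (replicates 1 to 3 in turn) and without replicate 1 of Cre WT (adjusted p = 0.141, 0.0565, 0.0825 and 0.0512), while the value over all 7 such fits stayed between 0.99 and 1.2 on the log2 scale.

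Sprr1a (ENSMUSG00000050359, chr3:92483952-92485895, minus strand) encodes a cross-linked envelope protein that injured sensory and motor neurons make. It was read from few counts, 34, 10 and 30 in Cre P278KY and 54, 11, 12 and 13 in Cre WT. These gave 1.61, 0.408 and 2.06 CPM in Cre P278KY and 3.36, 0.907, 0.366 and 0.559 CPM in Cre WT. The ranges overlapped fully, and Cre WT replicate 1 was the highest of the 7 libraries. Its log2 fold change was 0.10, with a wide 95% interval of -1.72 to 1.92 (adjusted p = 0.970), and within index set 1 it turned to -0.64 (adjusted p = 0.646).

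Ecel1 (ENSMUSG00000026247, chr1:87147655-87156521, minus strand), also known as DINE, encodes a neuronal membrane protein of the neprilysin family that motor axons need to branch at their targets. Its level was 63.1, 51.3 and 35.4 CPM in Cre P278KY and 42.5, 59.2, 36.0 and 31.6 CPM in Cre WT, and the groups overlapped. Ecel1 gave 0.29 on the log2 scale (95% interval -0.28 to 0.85, adjusted p = 0.639). Csf1 (ENSMUSG00000014599, chr3:107741048-107760469, minus strand) encodes a ligand of the macrophage and microglial receptor Csf1r. Its level was 19.5, 20.1 and 17.1 CPM in Cre P278KY and 24.3, 20.5, 19.5 and 21.8 CPM in Cre WT, again overlapping. Csf1 gave -0.16 on the log2 scale (95% interval -0.59 to 0.26, adjusted p = 0.738), so the interval holds no rise of the size measured for Gap43.

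Between genes, levels were compared per length, as mean TPM. In Cre P278KY, Gap43 was the most abundant with 160 TPM, followed by Ecel1 with 29.9, Csf1 with 10.2, Atf3 with 4.24, Sprr1a with 2.71 and Sox11 with 2.38 TPM. In Cre WT the order was Gap43 with 74.8, Ecel1 with 23.3, Csf1 with 11.9, Sprr1a with 2.33, Sox11 with 1.01 and Atf3 with 0.300 TPM. Atf3 was thus the lowest of the 6 in Cre WT but above Sprr1a and Sox11 in Cre P278KY, where its range of 1.11 to 6.24 TPM covered those of Sprr1a (1.18 to 3.53) and Sox11 (2.25 to 2.58). RSEM's effective length of Atf3 ran from 714 to 1839 bases over the libraries, so its TPM also carries the estimated isoform mix.

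Setting Cre against NoCre libraries asks which mRNAs were recovered with tagged ribosomes beyond the untagged background. In P278KY mice, 5 of the 6 genes were called higher in Cre, all but Csf1, while 28.2% of the 17133 genes tested were called higher and 31.2% lower. In WT mice 2 were called higher, Gap43 and Ecel1, where 28.5% of all genes were called higher and 31.2% lower. Groups that did not overlap, with Cre above NoCre, were seen for 28.3% of all genes in P278KY mice and 22.5% in WT mice. The 2 comparisons use different mice. The median of the 6 log2 fold changes was 2.13 in P278KY (-0.13 over all genes) and 0.78 in WT (-0.12 over all genes).

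Ecel1 was enriched in both genotypes. The NoCre P278KY libraries ran from 4.18 to 5.78 CPM (median 4.72), and the NoCre WT libraries had 5.59, 4.15, 1.59, 3.98 and 3.04 CPM, all far under the lowest Cre library at 31.6 CPM. The log2 fold change was 3.37 in P278KY mice (adjusted p = 2.82e-09) and 3.52 in WT mice (adjusted p = 3.48e-09). Both calls held in each of 18 fits with 1 library left out.

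Gap43 ran from 35.7 to 52.9 CPM in NoCre P278KY (median 45.9), and was 47.1, 42.8, 47.6, 45.4 and 52.2 CPM in NoCre WT. All Cre libraries stood above all NoCre libraries. Its log2 fold change was 1.64 in P278KY mice (95% interval 1.27 to 2.00, adjusted p = 1.43e-07) and 0.53 in WT mice (95% interval 0.17 to 0.88, adjusted p = 0.0125). The WT call did not hold under 5 alternatives, among them index set 2 alone (0.30, adjusted p = 0.422) and the fit without Cre WT replicate 2 (0.38, adjusted p = 0.0708).

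Atf3 ran from 0 to 0.795 CPM in NoCre P278KY (median 0.358), and was 0.611, 0.810, 0.0994, 0.398 and 0 CPM in NoCre WT. The NoCre P278KY library at 0 could hold up to 0.200 CPM and the NoCre WT library at 0 up to 0.457 CPM, the level of 3 counts. The Cre WT libraries lay inside this background range. In P278KY mice the log2 fold change was 3.54 (adjusted p = 0.000443), and in WT mice it was -0.32 (95% interval -2.03 to 1.40, adjusted p = 0.756). Of the 18 libraries, only the 3 Cre P278KY libraries had more than 0.810 CPM of Atf3.

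Sox11 ran from 0.550 to 2.13 CPM in NoCre P278KY (median 1.02) and was 0.0873, 0.911, 0.696, 0.996 and 1.07 CPM in NoCre WT. Its log2 fold change was 1.48 in P278KY mice (adjusted p = 0.0331) and 1.03 in WT mice (adjusted p = 0.147). The WT value was 2.22 within index set 1, where it was called (adjusted p = 0.0319), and -0.19 within index set 2 (adjusted p = 0.901). In the WT mice, index set and sex cannot be told apart. Sprr1a ran from 0 to 0.922 CPM in NoCre P278KY (median 0.0639), and was 0.524, 0, 0, 0.199 and 0.913 CPM in NoCre WT. Its log2 fold change was 2.62 in P278KY mice (adjusted p = 0.0379), although Cre P278KY replicate 2 lay below the highest NoCre P278KY library, and 1.99 in WT mice (adjusted p = 0.113). The P278KY call of Sox11 was lost in 4 and that of Sprr1a in 7 of 18 fits with 1 library left out. Over these fits the Sprr1a value in P278KY mice ran from 2.21 to 4.08, and with mice blocked by name prefix it was -0.14 (adjusted p = 0.882).

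Csf1 was not enriched by the tag in either genotype. It ran from 17.7 to 40.4 CPM in NoCre P278KY (median 20.5) and was 18.9, 14.7, 23.2, 23.5 and 14.9 CPM in NoCre WT. All 7 Cre libraries lay between the lowest and the highest of these. The highest was NoCre P278KY replicate 6, and Cre WT replicate 1, at 24.3 CPM, stood above every other NoCre library. The log2 fold change was -0.30 in P278KY mice (95% interval -0.82 to 0.22, adjusted p = 0.300) and 0.18 in WT mice (95% interval -0.31 to 0.67, adjusted p = 0.525). The microglial markers, which the pulldown depleted, summed to 29.1 to 44.8 CPM in Cre P278KY and 24.8 to 39.2 CPM in Cre WT, against 132 to 229 CPM in NoCre P278KY and 147 to 209 CPM in NoCre WT. The part of other cells in the Csf1 level of either kind of library was not tested.

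**Figure D2:**
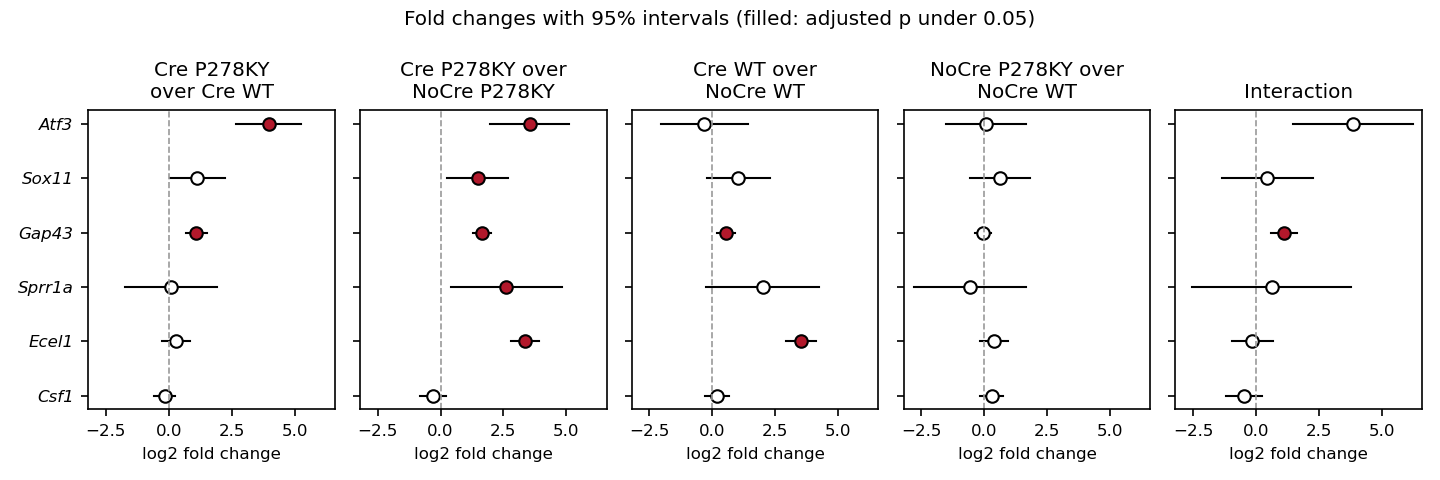
Log2 fold changes of the 6 genes with 95% intervals in the 5 comparisons, filled where the adjusted p was under 0.05. Atf3 and Gap43 were called between Cre P278KY and Cre WT, 5 genes between Cre P278KY and NoCre P278KY, 2 between Cre WT and NoCre WT, none between the NoCre groups, and Gap43 in the interaction.

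Between the control libraries, NoCre P278KY over NoCre WT, 0 of the 6 genes were called, and none had an unadjusted p under 0.05 (edgeR); DESeq2 and limma voom also called 0. Over all 17133 genes, 0 were called higher and 0.0233% lower. The log2 fold changes were 0.07 for Atf3, -0.05 for Gap43, -0.56 for Sprr1a, 0.64 for Sox11, 0.39 for Ecel1 and 0.30 for Csf1. The intervals of Sprr1a (-2.79 to 1.67) and Atf3 (-1.50 to 1.65) were wide.

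The interaction asked whether the genotype difference was larger in Cre than in NoCre libraries, and 0.344% of the genes tested were called higher in it and 0.309% lower. Of the 6 genes only Gap43 was called (1.11 on the log2 scale, 95% interval 0.59 to 1.63, adjusted p = 0.0374). Atf3 had the larger value, 3.85 (95% interval 1.48 to 6.23), with an unadjusted p of 0.0027 and an adjusted p of 0.144, and DESeq2 called it (3.91, adjusted p = 0.0355). The Gap43 call was lost in 9 of 18 fits with 1 library left out, with values of 1.05 to 1.26, and within index set 1 the value was 0.83 (adjusted p = 0.122). For Sox11, Sprr1a, Ecel1 and Csf1 the values were 0.45, 0.63, -0.15 and -0.48, none of them called.

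The wider injury programme was read from lists of genes in the same Cre P278KY to Cre WT comparison. Of 15 other transcription factors of the injury response, including Jun, Stat3, Klf6 and Smad1, 0 were called by edgeR and by limma voom, 2 had an unadjusted p under 0.05, and DESeq2 called 1. The nearest were the immediate early factor Egr1, with 28.0 ± 7.49 CPM in Cre P278KY (SD, n = 3) and 13.8 ± 3.55 CPM in Cre WT (SD, n = 4; log2 fold change 1.04, adjusted p = 0.0950), and Sox4, a relative of Sox11, with 0.982 ± 0.412 CPM in Cre P278KY (SD, n = 3) and 2.33 ± 0.429 CPM in Cre WT (SD, n = 4; -1.20, adjusted p = 0.226). The list median was 0.17. For this list and those below, the share of all genes at an unadjusted p under 0.05 was not worked out. The list counts at that level thus have no rate to be set against and are not read as an excess. DESeq2 called 2.89% of all genes higher and 3.71% lower in this comparison. Within index set 1 alone, where 4.3% of all genes were called higher and 4.81% lower, 2 of the 15 were called higher, Egr1 and Tead1.

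Among 30 other injury-induced effectors, 25 were tested, 2 were called higher and 1 lower, with a list median of -0.27. Over all genes tested, 1.22% were called higher and 1.11% lower. The neuropeptide gene Adcyap1 (PACAP) averaged 49.2 ± 16.8 CPM in Cre P278KY (SD, n = 3) and 21.3 ± 2.82 CPM in Cre WT (SD, n = 4), which is 1.23 on the log2 scale (adjusted p = 0.0354). The neurotensin gene Nts averaged 103 ± 19.0 CPM in Cre P278KY (SD, n = 3) and 45.1 ± 14.4 CPM in Cre WT (SD, n = 4), which is 1.24 on that scale (adjusted p = 0.0355). The cytokine receptor gene Lifr fell to 126 ± 20.8 CPM in Cre P278KY (SD, n = 3), against 254 ± 24.7 CPM in Cre WT (SD, n = 4; -0.98, adjusted p = 0.0287). The growth-arrest gene Gadd45a did not pass (1.22, adjusted p = 0.0850). Within index set 1, 2 of 24 were called higher and 7 lower, beside the 4.3% and 4.81% of all genes there. The calls of Adcyap1, Nts and Lifr were lost in 6, 4 and 5 of 7 fits with 1 library left out.

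Of 8 genes of cytokine signalling, 2 were called lower, Lifr, which is on both lists, and the kinase gene Jak1, with 213 ± 15.4 CPM in Cre P278KY (SD, n = 3) and 406 ± 73.5 CPM in Cre WT (SD, n = 4; -0.90, adjusted p = 0.0403). The Jak1 call was lost in 6 of 7 fits with 1 library left out (adjusted p up to 0.194). The list median was -0.51, and 1.11% of all genes tested were called lower. Of 16 genes of the axon damage kinase and degeneration pathway, which runs from Map3k12 (DLK) to the JNK kinases and includes Sarm1, 0 were called by edgeR and by limma voom, 2 had an unadjusted p under 0.05 and DESeq2 called 1. The largest of these were the JNK scaffold gene Mapk8ip1 (-0.91, adjusted p = 0.0775) and the MAP kinase phosphatase gene Dusp4 (1.15, adjusted p = 0.153). Within index set 1 both were called, Dusp4 higher (1.56, adjusted p = 0.0336) and Mapk8ip1 lower (-1.13, adjusted p = 0.0103). With mice blocked by the prefix of their names, a fit that called 5.36% of all genes higher and 5.95% lower, Mapk8ip1 (-0.68, adjusted p = 0.0427) and Sarm1 (-1.02, adjusted p = 0.0154) were called lower. Among the Cre mice, the genotypes shared a prefix only between Cre P278KY replicates 1 and 3 and Cre WT replicates 3 and 4. The former lie in index set 1 and the latter in index set 2, so this fit cannot tell genotype from index set. Of 5 Csf1 partners, 2 were tested, Csf1r (-0.22, adjusted p = 0.794) and Il34 (-0.54, adjusted p = 0.577), and 0 were called by edgeR, DESeq2 or limma voom, with 0 at an unadjusted p under 0.05.

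Of 12 transcripts known to fall after motor axon injury, 1 was called lower and 0 higher, beside 1.11% and 1.22% of all genes. The list median was -0.55, and 7 of 12 had an unadjusted p under 0.05 (edgeR). The neurofilament light chain gene Nefl averaged 6322 ± 132 CPM in Cre P278KY (SD, n = 3) and 15889 ± 3724 CPM in Cre WT (SD, n = 4), a difference of -1.29 on the log2 scale (adjusted p = 0.0103). The medium and heavy chain genes gave -1.34 for Nefm (adjusted p = 0.0603) and -0.75 for Nefh (adjusted p = 0.157), and the muscarinic receptor gene Chrm2 -0.69 (adjusted p = 0.158). Chat gave -0.17 (adjusted p = 0.811). Within index set 1, 3 of 12 were called lower and 0 higher, beside 4.81% and 4.3% of all genes there. Between the control libraries, where 0.0233% of all genes were called lower, 2 of the 12 were called lower, Nefl and Chat. Nefl ran from 829 to 1109 CPM in NoCre P278KY and from 1559 to 1829 CPM in NoCre WT (-0.79, adjusted p = 0.0468). Chat ran from 1.93 to 3.58 CPM in NoCre P278KY and from 5.87 to 12.9 CPM in NoCre WT (-1.45, adjusted p = 0.0340). This Chat call was lost in 9 of 18 fits with 1 library left out (adjusted p up to 0.117) and in 7 of 14 other settings. The Nefl call among control libraries was not followed through the refits. In the interaction 0 of the 12 were called (edgeR), and Nefl gave -0.54 there (unadjusted p = 0.0285, adjusted p = 0.371). The Nefl call among Cre libraries was lost when any 1 of the Cre P278KY libraries was left out (adjusted p = 0.0768 to 0.0953).

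Atf3 is also a target of the integrated stress response factor Atf4. Of 7 listed neighbours of that pathway, 5 were called higher in Cre P278KY and 0 lower, beside 1.22% and 1.11% of all genes. The list median was 1.84. The transcription factor gene Atf5 averaged 26.4 ± 2.86 CPM in Cre P278KY (SD, n = 3) and 3.55 ± 0.571 CPM in Cre WT (SD, n = 4), a 7.47-fold higher level (log2 2.90, adjusted p = 0.000247). Ddit3, which encodes the factor CHOP, averaged 27.4 ± 2.41 CPM in Cre P278KY (SD, n = 3) and 4.50 ± 1.08 CPM in Cre WT (SD, n = 4), a 6.17-fold higher level (log2 2.63, adjusted p = 0.000471). The log2 fold changes were 1.15 for the asparagine synthetase gene Asns (adjusted p = 0.00644) and 1.61 for the glutathione-degrading enzyme gene Chac1 (adjusted p = 0.00799). Within index set 1, with 4.3% of all genes called higher, all 7 were. This pattern was known when the list was drawn up and is no independent support.

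**Figure D3:**
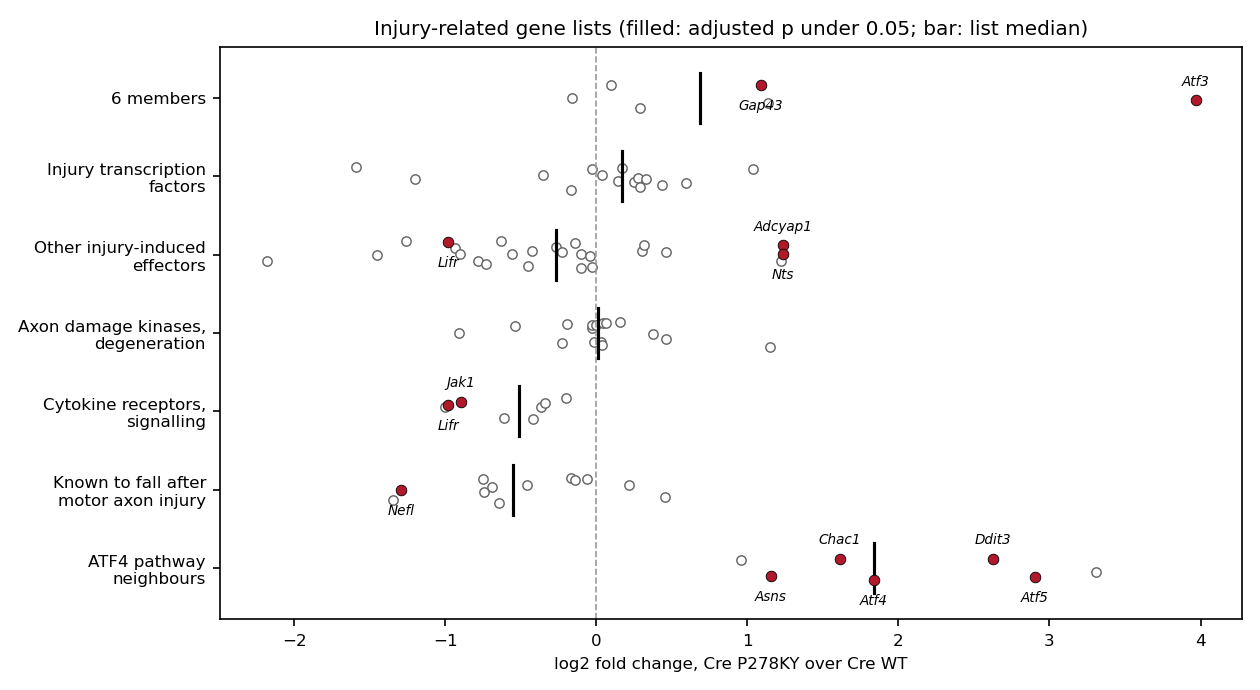
Log2 fold change of Cre P278KY over Cre WT for each tested gene of 7 lists, with filled points and names for genes at an adjusted p under 0.05 and a bar at each list's median. The medians were 0.69 for the 6 genes, 0.17 for other injury transcription factors, -0.27 for other effectors, -0.51 for cytokine signalling, -0.55 for transcripts known to fall and 1.84 for the ATF4 neighbours.

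Markers of other cells moved between the Cre groups as well. Sensory ganglion markers summed to 89.2 to 96.5 CPM in Cre P278KY and 38.0 to 54.6 CPM in Cre WT. Beside 1.22% of all genes, 2 of the 6 tested of 10 were called higher. These were the purinergic receptor gene P2rx3, at 21.3 to 34.9 CPM in Cre P278KY and 0.165 to 2.19 CPM in Cre WT, and Avil, at 14.6 to 17.3 CPM in Cre P278KY and 0.0610 to 1.89 CPM in Cre WT. The nociceptor markers Scn10a and Mrgprd were at 0 in all 3 Cre P278KY libraries. Of 6 Schwann cell and nerve root markers tested, 2 were called lower, beside 1.11% of all genes. The whole list summed to 192 to 249.1 CPM in Cre P278KY and 355 to 503 CPM in Cre WT. Most of these sums was Pmp22, at 161 to 223 CPM in Cre P278KY and 318 to 363 CPM in Cre WT. Pmp22 was also at 134 to 424 CPM in NoCre WT. Ngfr of the same list went the other way, at 8.85 to 13.0 CPM in Cre P278KY and 1.24 to 6.11 CPM in Cre WT. Skeletal muscle markers summed to 6.49 to 13.7 CPM in Cre P278KY and 25.6 to 144 CPM in Cre WT, with 0 of 10 called (edgeR) and 9 at an unadjusted p under 0.05. Oligodendrocyte markers summed to 718 to 1780 CPM in Cre P278KY and 759 to 4146 CPM in Cre WT, with a median log2 fold change of -1.53, 7 of 10 at an unadjusted p under 0.05 and 0 called (edgeR). Vascular and meningeal markers summed to 26.7 to 63.4 CPM in Cre P278KY and 52.3 to 523 CPM in Cre WT, with a median of -2.10, 5 of 10 at an unadjusted p under 0.05 and 0 called (edgeR). Astrocyte markers summed to 838 to 1338 CPM in Cre P278KY and 1076 to 1829 CPM in Cre WT, with a median of -0.88, 3 of 10 at an unadjusted p under 0.05 and 0 called (edgeR). Oligodendrocyte sums were 759 and 1205 CPM in Cre WT of index set 1 and 3657 and 4146 CPM in index set 2. Vascular and meningeal sums were 52.3 and 65.4 against 189 and 523 CPM, and astrocyte sums 1076 and 1260 against 1829 and 1567 CPM. Within index set 1 the Cre P278KY and Cre WT sums of these lists overlapped. The part of index set in these differences was not tested. Of the microglial and interneuron markers tested, 0 of 9 and 0 of 8 had an unadjusted p under 0.05 (edgeR). Among the 10 cholinergic markers themselves, 1 was called lower, beside 1.11% of all genes. Of the 10, 5 had an unadjusted p under 0.05 (edgeR), and the median was -0.25. The one called was Chodl, a marker of fast motor neurons, at 62.9 to 79.1 CPM in Cre P278KY and 248 to 599 CPM in Cre WT (-2.53, adjusted p = 0.00320). The neuropeptide gene Calca was at 69.7 to 152 CPM in Cre P278KY and 219 to 561 CPM in Cre WT (-1.90, adjusted p = 0.0512). For the marker counts, too, the share of all genes at an unadjusted p under 0.05 was not worked out. The part of any of these cells in the levels of Atf3 and Gap43 was not tested.

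**Figure D4:**
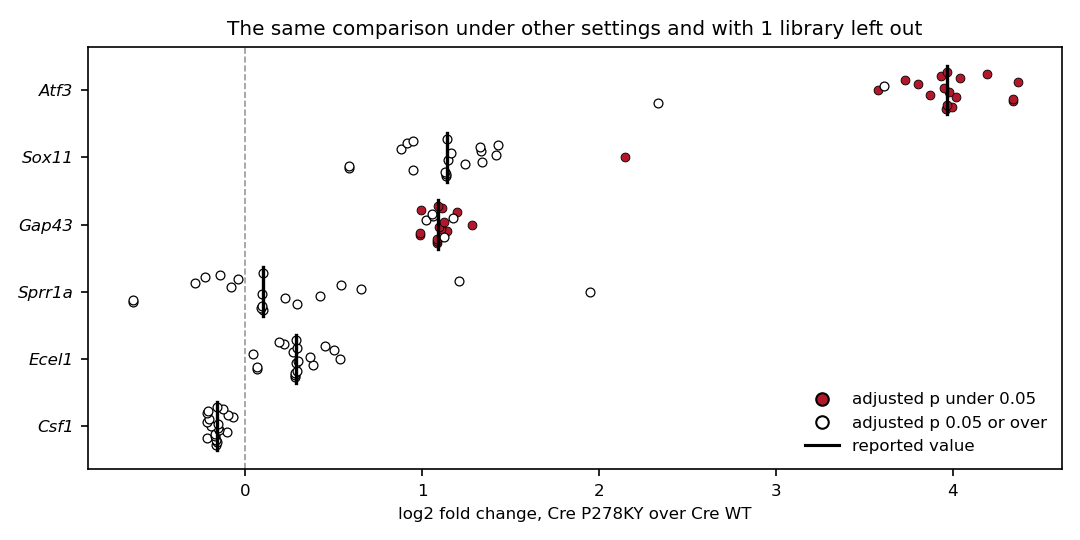
Log2 fold change of Cre P278KY over Cre WT for each of the 6 genes under 12 other settings and with each of the 7 libraries left out, filled where the adjusted p was under 0.05, with a bar at the reported value. Atf3 was called in 17 and Gap43 in 14 of the 19 fits, Sox11 in 1 (the replicate block), and Sprr1a, Ecel1 and Csf1 in none. The fits share libraries and are not independent checks. Index set 1 alone and index set as a term gave nearly the same values, as index set 2 holds no Cre P278KY library.

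The genes most like each member were read from the correlation of log2 CPM (prior count 2), as a description over libraries that share group structure and depth. Over all 18 libraries and 14360 genes, Atf3 was nearest to Ept1 (Pearson r = 0.895), P2rx3 (0.877) and Ddit3 (0.846), and Gap43 to Gprasp2 (0.938), Scg2 (0.937) and Rars (0.937). Ecel1 was nearest to Immp2l (0.978), Pitpna (0.974) and Ube2ql1 (0.973), Csf1 to Supt7l (0.889), Slc29a3 (0.807) and Thsd7a (0.799), Sox11 to Nenf (0.834), Plin2 (0.831) and Star (0.815), and Sprr1a to Tspo (0.876), Cpsf1 (0.873) and Mief2 (0.869). Over the 7 Cre libraries alone and 13146 genes, the nearest single gene was Fbxw8 for Atf3 (0.993), Adra1b for Gap43 (0.996), Max for Sox11 (0.995), Tbc1d13 for Sprr1a (0.988), Recql4 for Ecel1 (0.948) and Gng10 for Csf1 (0.985). None of the 6 members was among the 3 nearest genes of another.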

How the data were processed

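For each library the authors deposited RSEM gene results, per the file headers, of which the expected counts and the TPM were used. Per the submitters' processing notes the tools were Bowtie2 2.2.0 and RSEM 1.2.12. The reference genome build is not given in the sources used here. The deposited expected counts were rounded to whole numbers, which left the 6 genes' values as deposited. Strandedness is not stated, and no other gene shares exon bases with a member in GENCODE M21 (GRCm38), from which positions were taken.

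Counts were tested with edgeR 4.0.16 (filterByExpr, TMM, robust quasi-likelihood, two-sided) in R 4.3.3, with Benjamini-Hochberg adjustment over all genes tested and a threshold of 0.05. The 7 Cre libraries were fitted alone, and 1 model with a mean per group over all 18 libraries gave the other 4 comparisons. An adjusted p without another tool named is from edgeR. Alternatives included DESeq2 1.42.0, limma 3.58.1 with voom, and limma on log2(TPM + 0.5). The procedure was tested on simulated data. Replicate numbers follow submission order. Members, lists and tests were chosen with earlier results of these data known. Named genes were the members, Chat, Gars and Rpl22, up to 4 genes per list with the smallest adjusted p, and the 3 most correlated genes per member. In the Cre comparison Gars gave a log2 fold change of 1.01 (adjusted p = 0.0219) and Rpl22 0.12 (adjusted p = 0.842), and these counts do not tell the mutant allele apart. The libraries are separate mice by their names. Intervals of log2 fold changes come from edgeR's fitted spread between mice. The limit for a count of 0 (3 counts) covers counting error only.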

Additional observations from a re-analysis of the deposited data

Results flagged for a closer look

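Each gene was looked at in its 3 groups of 4 to 6 libraries for a library far from the others, 18 groups in all, and 2 were found, where chance gives about 1 in 20. The groups of 3 libraries were not looked at. Csf1 had 40.44 CPM in NoCre P278KY replicate 6, against 17.7 to 22.7 CPM in the other 5 libraries of that group. That library had 232 Csf1 counts, a protein-coding share of 37.5% and a TMM factor of 0.582, and its deposited value of 10.8 TPM lay within the 8.31 to 16.5 TPM of the other 5; the part of the scaling in the CPM value was not tested. Sprr1a had 0.9219 CPM in NoCre P278KY replicate 5, from 11 counts, against 0 to 0.224 CPM and at most 3 counts in the other 5. Its enrichment in P278KY mice was called with and without that library.

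The genotype difference of Gap43 was larger in Cre than in NoCre libraries (interaction 1.111 on the log2 scale, edgeR adjusted p = 0.0374), the only one called of 6 such tests. The difference was 1.09 among Cre and -0.05 among NoCre libraries. The interaction of Gap43 was called in 17 of 31 refits. It was not called on TPM (0.73, limma adjusted p = 0.952) or with library size only (0.81, edgeR adjusted p = 0.822).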

How the results depend on the processing

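Of 866 refits of the 6 genes' values over the 5 comparisons, 784 kept both direction and call, 42 lost a call, 4 gained one and 36 changed sign, of which 1 concerned a called value. The replicate block used the number that begins the mouse names, which some mice share across groups. Same-numbered mice did not deviate together (12 pairs, r from -0.123 to 0.176, 2 over 0.1; 107 other pairs, -0.219 to 0.217), so the numbers were not taken to pair mice. Sex as a term, and the fits without the 2 libraries of lowest protein-coding share (NoCre WT replicates 4 and 5), were chosen after seeing the data. The cause of the changes was not tested.

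Cre P278KY over Cre WT called 342 genes. It called 103 on TPM, 972 with DESeq2, 1343 in index set 1, 1676 with index set as a term, 148 with library size only, 1664 with the replicate block, 553 with sex as a term, and 95 to 324 with 1 library left out. Atf3 gave 2.33 on TPM (not called) and 3.61 to 4.37 with 1 library left out. Gap43 gave 1.12 on TPM (not called) and 0.99 to 1.2 with 1 left out. Sox11 was called with the replicate block (2.14, adjusted p = 0.0268), against an adjusted p of 0.198 to 0.474 in the other settings. In this comparison the block sets Cre P278KY libraries of index set 1 against Cre WT libraries of index set 2. Genotype and index set cannot be told apart in it. Sprr1a gave -0.64 in index set 1 and with index set as a term, and -0.28 to 1.21 with 1 left out. Osmr turned to 0.11 in index set 1 and 0.10 with the term, Dusp8 to -0.036 on TPM, Rpl22 to -0.17 in both index set fits and -0.0056 to 0.24 with 1 left out, and Chat to 0.35 with the replicate block.

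Cre over NoCre in P278KY called 10180 genes and 6543 on TPM. Sox11 gave 1.28 in index set 1, 1.30 with the index set term, 1.43 with library size only, 1.37 with RLE and 1.21 to 1.77 with 1 left out. Sprr1a gave 2.63 with the index set term, -0.14 with the replicate block and 2.21 to 4.08 with 1 left out. Cre over NoCre in WT called 10229 genes and 4955 in index set 2. Library size only moved the median of all genes there from -0.12 to 0.20. Gap43 gave 0.84 on TPM, 0.30 in index set 2, 0.79 with library size only, 0.39 with RLE and 0.38 to 0.59 with 1 left out. Atf3 gave 0.14 on TPM, 0.027 with library size only and -0.58 to 0.15 with 1 left out. Sox11 gave 2.22 (called) in index set 1 and -0.19 in index set 2, Csf1 -0.0044 in index set 2, and Sprr1a 1.50 (called) on TPM.

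NoCre P278KY over NoCre WT called 4 genes, 0 on TPM (limma; edgeR 4), 28 with DESeq2, 1 with voom, and 2 in index set 2, with library size only, with the replicate block and without the 2 libraries of lowest protein-coding share, and 2 to 6 with 1 left out. Library size only moved the median of all genes from -0.0052 to 0.35. Atf3 gave -0.78 in index set 1, -0.084 with voom, -0.27 without the 2 libraries and -0.23 to 0.49 with 1 left out. Ecel1 gave -0.039 in index set 1. Gap43 gave 0.40 on TPM, 0.13 in index set 1, 0.33 with library size only and 0.086 with the replicate block. Sprr1a gave 3.62 with the replicate block, 0.20 without the 2 libraries and -2.02 to 0.17 with 1 left out.

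The interaction called 112 genes, 27 on TPM, 382 with DESeq2, 406 in index set 1, 5 with library size only and 41 to 250 with 1 left out. Gap43 gave 0.73 on TPM, 0.83 in index set 1, 0.81 with library size only, 1.09 without a filter, 1.08 without the 2 libraries and 1.05 to 1.26 with 1 left out. Its call was lost in the first 5 of these settings (adjusted p = 0.952 with limma, then 0.122, 0.822, 0.122 and 0.0659 with edgeR). Atf3 gave 3.91 (called) with DESeq2. Ecel1 gave 0.077 in index set 1 and -0.37 to 0.052 with 1 left out, Sox11 -0.94 in index set 1, and Sprr1a -1.69 with the replicate block, -0.13 without the 2 libraries and -0.087 to 2.10 with 1 left out. Depth limits Atf3 outside Cre P278KY and Sprr1a throughout, with 0 to 54 counts per library for Sprr1a.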
